A study of Lathyrus oleraceus with 4 samples.

Results

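The transcripts described here are those of the pea genes DRM1 and PsAD1, both first known from dormant axillary buds. They were measured by the probes AF029242 (DRM1, dormancy-associated protein) and AB031227 (PsAD1), 2 of the 2234 probes of an oligonucleotide array of garden pea, and were picked by these GenBank accessions. They had been chosen because earlier results of the same arrays showed DRM1 below and PsAD1 above the rest of the plant in the shoot apical meristem (SAM). The ratio of SAM to non-meristem (NM) signal is therefore given for both as a description, without a test. Each gene was represented by 1 probe, so a second probe could not be compared. By name, DRM1 matched 1 protein-coding gene of the RefSeq annotation of pea (assembly CAAS_Psat_ZW6_1.0), LOC127081942, and the name PsAD1 matched none.

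Axillary buds form in the axils of leaves and often stop growing while the main shoot tip is active, a control known as apical dominance. DRM1 transcripts accumulate in such arrested buds of pea and decline when the tip is removed and the buds start to grow, and DRM1 homologues are widely used as markers of bud dormancy. PsAD1 and PsAD2 were isolated as transcripts of dormant axillary buds of pea. The SAM is the dividing tissue at the tip of the growing shoot.

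Each of the 4 arrays carried RNA of both tissues from 1 independent collection of 10-day-old plants of the cultivar Torsdag, with about 80 dissected SAMs in an extraction. SAM RNA was labelled with Cy3 and NM RNA with Cy5 on arrays 1 and 3, and the dyes were exchanged on arrays 2 and 4. Leaf primordia were excluded from the SAM samples, and NM RNA came from primary stem, primary root and mature leaf, with the organ that carried a signal left unresolved by the mixture. The methods define NM tissue where they describe the subtraction of a cDNA library. There the stem is without axillary meristems and the root without its apical meristem. The RNA put on the arrays carries the same name, NM, so by this definition axillary meristems were left out of it. The extraction for the arrays lists the organs and does not repeat the exclusion. All plants were of the same cultivar and no treatment is named, and the methods describe the collections and extractions as independent.

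Per array and channel, the probes had a median intensity between 170.2 and 792, and that of the 6 blank spots between 43.8 and 157. The channel that held SAM RNA on array 2 was the dimmest, with a median of 170.2. The deposited tables number the channels without naming dyes, and the first channel was read as Cy5. Under this reading all 5 probes of mature leaf photosynthesis chosen as markers (Lhcb3, RuBisCO activase, oxygen-evolving enhancer protein 3, CP47 and CP12) had less signal from the SAM on every array, before and after normalization, with mean log2 ratios of SAM to NM from -2.90 to -0.99. All 5 markers of dividing cells (a pair of PCNA probes, cyclin D, MCM7 and MCM3) had more signal from the SAM on every array after normalization, with means from 0.54 to 2.00. All 10 are listed by the study as changed on these arrays. The mature leaf was in the NM mixture, so this direction is the likely one. It is not stated in the tables, and if the first channel were Cy3 every direction given here would be reversed.

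DRM1 gave less signal from SAM RNA than from NM RNA on every array. The SAM intensity was 899 on array 1, 205 on array 2, 890.5 on array 3 and 2142.5 on array 4. The NM intensity of the same spots was 1248, 1104, 2174 and 2387. On array 4 the tissues were closest before normalization, and on array 2 they were farthest apart. Because the channels of an array differed in overall brightness, the intensities were also set against the median of all probes in their channel. On this scale DRM1 in the SAM was at 2.09, 1.20, 1.49 and 2.71 times the channel median on arrays 1 to 4, and in the NM at 4.82, 2.78, 6.01 and 5.11 times. All SAM values lay below all NM values, by a narrow margin between 2.71 in the SAM of array 4 and 2.78 in the NM of array 2. Of all probes 6.89% had their SAM values below all NM values on this scale and 9.58% had them above, and nothing is read from this pattern in genes chosen by the same contrast. DRM1 was thus above the channel median in both tissues, and its SAM signal was at least 3.87 times that of the brightest blank spot. A lower level in a tissue can come from fewer cells that carry a transcript or from less of it per cell, and these cannot be told apart in such samples.

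PsAD1 showed the opposite arrangement, and nearly all of the variation of its signal lay in the SAM channel. The SAM intensity was 4485 on array 1, 298 on array 2, 1961 on array 3 and 7293.5 on array 4, against 246, 384, 291 and 460.5 in the NM. Before normalization the SAM was thus above the NM on 3 of the arrays and below it on array 2, where the whole SAM channel was dim. Set against the channel median, PsAD1 in the SAM was at 10.4, 1.75, 3.28 and 9.21 times the median on arrays 1 to 4. In the NM it stayed just under the median, at 0.948, 0.967, 0.804 and 0.986 times. On this scale all 4 SAM values lay above all 4 NM values, and the highest SAM value was 5.97 times the lowest, whereas the NM values differed by 1.23 times. The NM signal of PsAD1 was between 2.90 and 5.43 times that of the brightest blank. Of the 2234 probes 0 were as dim as the brightest blank in any channel, so these values do not show that PsAD1 transcript was detected in the NM.

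**Figure D1:**
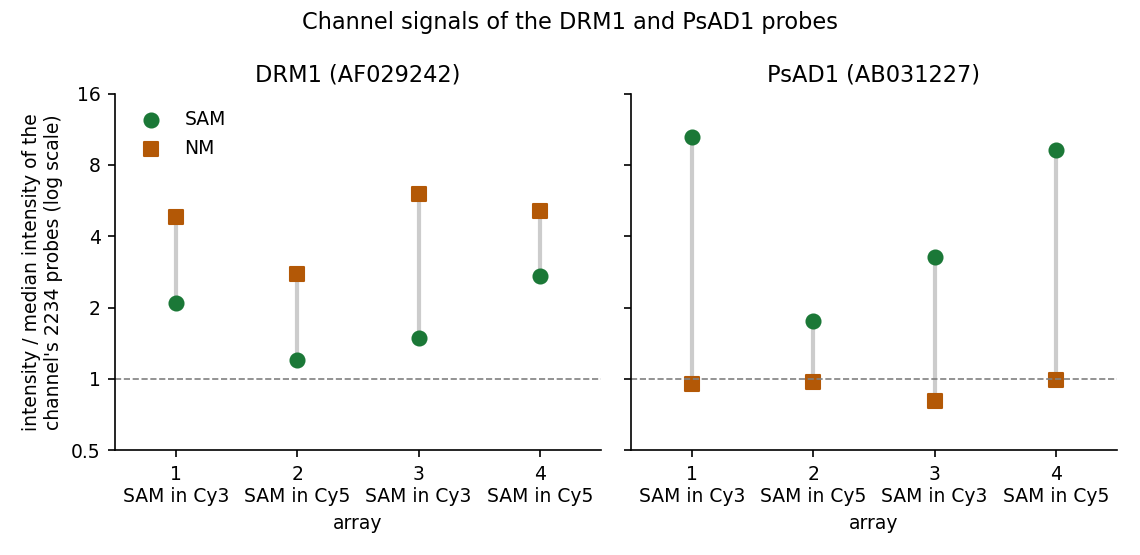
Intensity of the DRM1 (left) and PsAD1 (right) probes in the SAM (circles) and NM (squares) channel of each of the 4 arrays, divided by the median intensity of the 2234 probes in that channel (log scale; the dashed line marks the median). DRM1 lies above the median in both tissues and is higher in the NM on each array, while PsAD1 lies near the median in the NM and between 1.75 and 10.4 times the median in the SAM.

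The variation of the channel signals was compared with that of all probes as the SD, over the 4 arrays, of the log2 signal relative to the channel median. For PsAD1 the SD was 1.23 in the SAM and 0.13 in the NM. The SAM value was higher than that of 99.9% of the 2234 probes, and the NM value higher than that of 29.9%. Over all probes the median SD was 0.20 in the SAM and 0.18 in the NM. For DRM1 the SD was 0.52 in the SAM and 0.48 in the NM, above 92.3% and 94.0% of the probes. The signal of PsAD1 therefore differed widely between arrays in the SAM and little in the NM, whereas that of DRM1 varied to a similar degree in both tissues. PsAD1 was not shown to be detected in the NM, so its small SD there does not describe a transcript level. Each array held its own collection, so array and collection cannot be told apart.

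After normalization within arrays by a robust spline, the log2 ratio of SAM to NM for DRM1 was -0.58 on array 1, -1.50 on array 2, -1.91 on array 3 and -1.46 on array 4. The mean was -1.36 ± 0.56 (SD, n = 4 arrays), a ratio of 0.388. Array 1 stood nearest to 0, and the other arrays lay within a narrow band, with a mean of -1.63 when array 1 was left out. DRM1 ranked 50 from the lowest of the 2234 mean ratios. On single arrays it ranked 159 from the lowest on array 1, 34 on arrays 2 and 3, and 63 on array 4.

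The log2 ratio of SAM to NM for PsAD1 was 4.08 on array 1, 0.74 on array 2, 2.04 on array 3 and 2.75 on array 4. The mean was 2.40 ± 1.39 (SD, n = 4 arrays), a ratio of 5.29. PsAD1 had the highest ratio of all probes on array 1, ranked 5 on array 4 and 32 on array 3, and fell to 96 on array 2. With array 2 left out the mean was 2.96, and with array 1 left out it was 1.84. The ratio was above 0 on all 4 arrays for PsAD1 and below 0 on all 4 for DRM1. Of all probes, 17.9% were above 0 on all 4 arrays and 16.8% below 0 on all 4, and since the probes were chosen by this contrast no weight is placed on their own pattern.

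The gap between both genes on the same array, PsAD1 minus DRM1, was 4.66 on array 1, 2.25 on array 2, 3.95 on array 3 and 4.22 on array 4 on the log2 scale. Array 2 gave the smallest gap. The ratios on array 2 were also the smallest in median size among all probes called different between the tissues. The 218 probes called higher in the SAM had medians of 0.69, 0.64, 1.03 and 0.93 on arrays 1 to 4, and the 164 called lower had medians of -0.94, -0.79, -1.10 and -1.18. The median of the probes called higher was thus lowest on array 2, as was the PsAD1 ratio. It was highest on array 3, whereas PsAD1 was highest on array 1. The medians are far smaller than most PsAD1 ratios and come from probes called on these same arrays, so only their order is compared. The cause of these differences was not tested.

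The spread of PsAD1 was the second widest on the array. Its SD of 1.39 was exceeded only by that of AF137351 (1.42), a pathogenesis-related protein 4 transcript that was named here after its value was seen. The median SD was 0.20 over all probes and 0.44 over the 156 probes with a mean log2 ratio of at least 1 in size. DRM1, with an SD of 0.56, ranked 51 among these 156. The 24 spots around PsAD1 on the chip had a median log2 ratio between -0.12 and 0.03 on the 4 arrays. For the 19 spots around DRM1, which lies near the edge of the grid, it was between -0.03 and 0.19. These medians were smaller in size than the probe's own ratio on each array. They cannot show a defect of a single spot, and a cause on the chip was not tested.

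**Figure D2:**
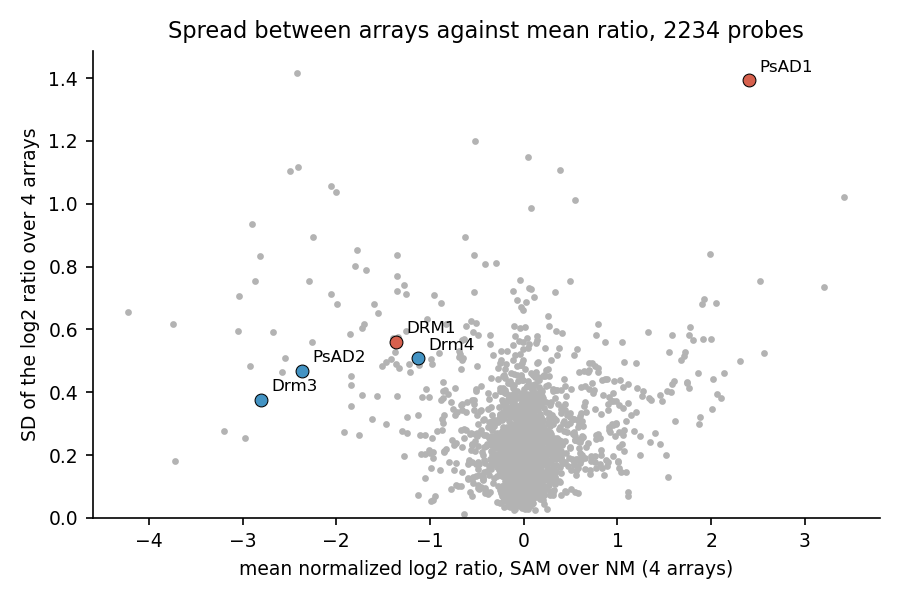
SD of the normalized log2 ratio of SAM to NM over 4 arrays (vertical axis) against its mean (horizontal axis) for the 2234 probes, with DRM1 and PsAD1 in red and the other dormancy-named probes in blue. PsAD1 lies at the upper right with a mean of 2.40 and an SD of 1.39, while DRM1 (SD 0.56) and the other dormancy-named probes lie among probes of similar mean.

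A dye effect was then tested, since each dye orientation was used on a pair of arrays and the dye term is independent of the tissue contrast by which the genes were chosen. For PsAD1 the mean log2 ratio of SAM to NM was 3.06 with SAM in Cy3 and 1.75 with SAM in Cy5. The dye effect, the log2 of Cy5 over Cy3 signal at equal tissue, was -0.655 (standard error 0.42, adjusted p = 0.395 in limma's test). For DRM1 the means were -1.25 with SAM in Cy3 and -1.48 with SAM in Cy5, and the dye effect was -0.12 (standard error 0.20, adjusted p = 0.764 in limma's test). Neither was called, and the standard error of PsAD1 leaves room for a dye effect of the size measured. Of the 2234 probes, 5 (0.224%) passed an adjusted p of 0.05 for the dye, namely AF137351, C0052, N1243, N0768 and N1084. At an unadjusted p under 0.05 there were 517 (23.1%). Over all probes, log2 ratios of SAM to NM correlated at 0.886 between arrays 1 and 3 and at 0.869 between arrays 2 and 4. Between arrays of opposite dye orientation the correlations were lower, from 0.681 to 0.814. Differences between orientations were thus not confined to the probes called. With SAM in Cy3, PsAD1 had 4.08 on array 1 and 2.04 on array 3. With SAM in Cy5 it had 0.74 on array 2 and 2.75 on array 4. The cause of this spread was not tested.

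**Figure D3:**
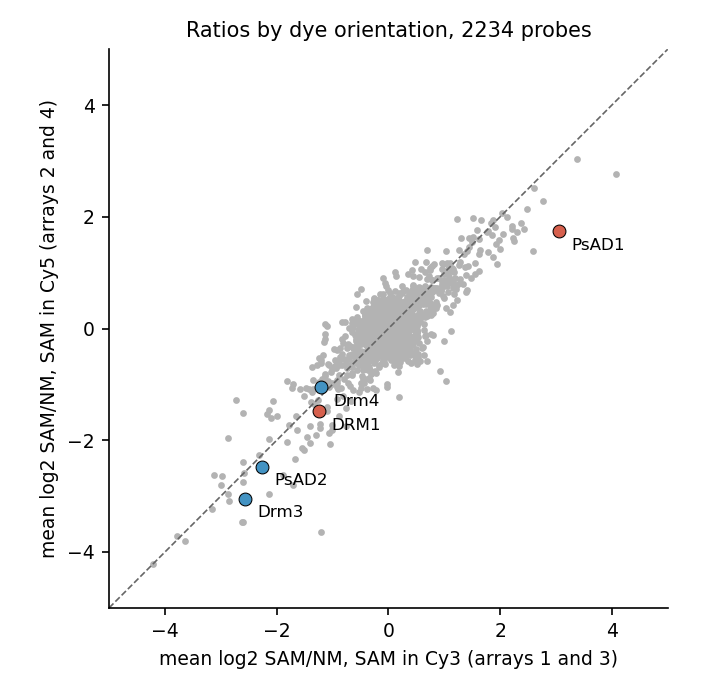
Mean normalized log2 ratio of SAM to NM on the arrays with SAM in Cy5 (vertical axis, arrays 2 and 4) against that on the arrays with SAM in Cy3 (horizontal axis, arrays 1 and 3) for the 2234 probes; the dashed line marks equal values. DRM1 (-1.25 and -1.48) lies close to the line, and PsAD1 (3.06 and 1.75) lies to its right.

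Among the probes that the study lists as changed, 3 more were named for dormancy or for the PsAD cDNAs, and each was called lower in the SAM. Probes outside that list carried no name here, so a dormancy transcript that did not change could not have been found. They are PsAD2 (AB031228), isolated together with PsAD1, and the dormancy-associated transcripts Drm3 (AF515795) and Drm4 (AF515796). For a call, the p-value of limma, adjusted over the 2234 probes, had to be under 0.05 and the ratio below 0.7 or above 1.3. By this rule 7.34% of all probes were called lower and 9.76% higher, 17.1% together. Since the 3 probes were found through a list made on the same arrays, their calls are not independent evidence and their number does not describe the dormancy genes of the array. Their median log2 ratio was -2.37, against 0.00 over all probes.

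PsAD2 was lower in the SAM on every array, with an intensity of 365 on array 1, 119 on array 2, 416 on array 3 and 468 on array 4, against 1118, 1765, 1493.5 and 1074.5 in the NM. Its log2 ratio was -2.37 ± 0.47 (SD, n = 4 arrays), with an adjusted p of 1.6e-04 in limma. In the NM, where PsAD1 stayed just under the channel median, PsAD2 was at 4.31, 4.44, 4.13 and 2.30 times the median of its channel on arrays 1 to 4. In the SAM it was at 0.851, 0.699, 0.697 and 0.591 times, and at least 2.25 times the brightest blank. As for PsAD1 in the NM, such values do not show that the transcript was detected. With a background correction (normexp) the mean log2 ratio of PsAD2 was -3.38, so its size depends on how background is treated. The log2 ratios of PsAD1 and PsAD2 differed on the same array by between 3.69 on array 2 and 6.06 on array 1.

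Drm3 had the lowest ratio of the dormancy-named probes, -2.80 ± 0.38 (SD, n = 4 arrays), with an adjusted p of 7.0e-05 in limma. Its intensity was 594 in the SAM and 4176 in the NM on array 1, 111 and 1528.5 on array 2, 835.5 and 2921 on array 3, and 787.5 and 3422 on array 4. Relative to the channel median, Drm3 was at most 1.40 in the SAM (array 3) and at least 3.85 in the NM (array 2). Of all probes 6.89% had all SAM values below all NM values on this scale. Nothing is read from this pattern, since Drm3 came from a list of probes changed on these arrays. The ratio of Drm4 was -1.13 ± 0.51 on the log2 scale (SD, n = 4 arrays), with an adjusted p of 0.00351 in limma. Array 1 gave the value nearest to 0 (-0.60) and array 3 the lowest (-1.82), as for DRM1 after the same normalization. With arrays centred on their medians alone, array 4 was the nearest to 0 for DRM1 (-1.02, against -1.26 on array 1). Before normalization the SAM signal of Drm4 was above that of the NM on array 4 (1899 against 1634.5) and below it on the others.

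**Figure D4:**
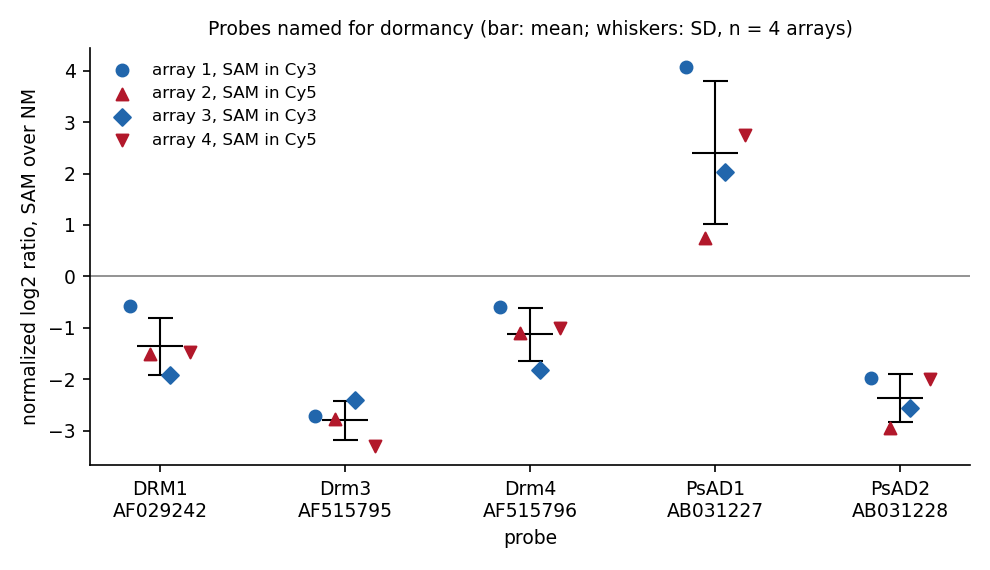
Normalized log2 ratio of SAM to NM of the 5 dormancy-named probes on each of the 4 arrays (symbols; blue with SAM in Cy3, red with SAM in Cy5), with the mean (bar) and SD (whiskers, n = 4 arrays). DRM1, Drm3, Drm4 and PsAD2 lie below 0 on all arrays, and PsAD1 lies above 0 on all arrays, from 0.74 to 4.08.

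The probes whose pattern was most like that of each gene were found by the root mean square difference of the log2 ratios on the 4 arrays. For DRM1 the nearest of the other 2233 probes was AF079851, a nodule-enhanced sucrose synthase, at a difference of 0.27, followed by Drm4 at 0.31 and by the library clone C0342 at 0.33. AF079851 shared the smallest ratio on array 1 (-0.79) with DRM1 and had between -1.67 and -1.79 on the others. There were 15 probes within a difference of 0.5 of DRM1 and none within 0.5 of PsAD1. The nearest to PsAD1 was the clone S0103 of the subtracted SAM library at 0.73, with log2 ratios of 3.04, 1.01, 2.13 and 1.78 on arrays 1 to 4. S0103 thus shared the highest ratio on array 1 and the lowest on array 2 with PsAD1. It was followed by the clone C0336 at 1.05 and by X67427, a protease inhibitor or lipid transfer protein transcript, at 1.17. These differences describe 4 arrays and rest on no test.

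Hormones move through the shoot and act on axillary buds, and 5 probes with hormone-related names, taken from the same list of changed probes, were set beside the dormancy genes. Of these, 1 was called higher in the SAM, 2 were called lower and 2 were not called. Of all probes 9.76% were called higher and 7.34% lower. The list was made on these same arrays, so the calls and p-values of the hormone-related probes are not independent evidence. LKB (AF325121), which acts in brassinosteroid synthesis, was higher by 0.66 ± 0.42 on the log2 scale (SD, n = 4), with an adjusted p of 0.0216 in limma. AJ831475, a putative His-Asp phosphotransfer protein of the kind that relays cytokinin signals, was lower with -1.05 ± 0.13 (SD, n = 4), with an adjusted p of 2.6e-04 in limma. AY065659, annotated as an ultraviolet-B-inducible auxin-related protein, was lower with -3.72 ± 0.18 (SD, n = 4), with an adjusted p of 2.3e-06 in limma. The carotenoid dioxygenase nced4 (AB080194) had a ratio of 0.711 and the putative IAA-related AF026531 one of 0.714, and both passed the adjusted p but not the limit of 0.7.

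The processing moved the values of single arrays and, under some settings, the means. When arrays were centred on their medians alone, the log2 ratio of DRM1 on array 1 was -1.26 in place of -0.58, and that on array 4 was -1.02 in place of -1.46, while the mean stayed at -1.36. Without normalization, PsAD1 had -0.37 on array 2 and 3.99 on array 4, and the median of all probes was 0.27. With a normexp background correction, which widens the ratios of dim spots, the means were -1.62 for DRM1 and 2.97 for PsAD1. In each of the 8 processings plotted, array 1 gave the highest and array 2 the lowest value of PsAD1.

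**Figure D5:**
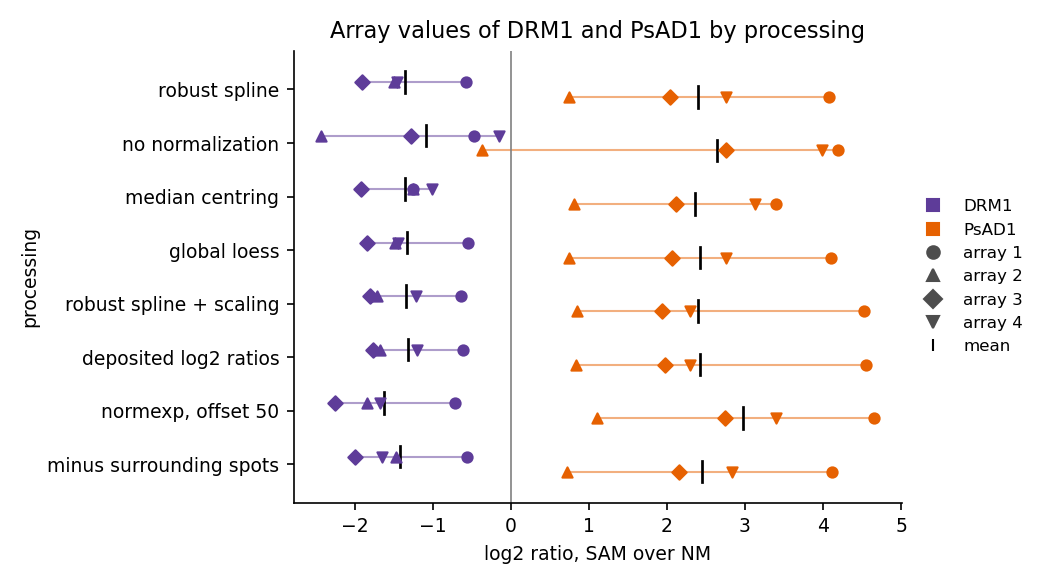
Log2 ratio of SAM to NM of DRM1 (purple) and PsAD1 (orange) on each of the 4 arrays (symbols) under 8 processings of the same intensities, with the mean (black tick). All DRM1 values lie below 0, and all PsAD1 values lie above 0 except array 2 without normalization (-0.37).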

How the data were processed

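The arrays were CombiMatrix custom oligonucleotide chips of 4 sectors, each hybridized as 1 array, scanned on a Genepix instrument and quantified in the CombiMatrix imager. For every spot the authors deposited an intensity in each channel and no background value. They also deposited log2 ratios of the first over the second channel, which a global loess of all spots followed by scaling between arrays gave to within 3.2e-08. Labels number 3 of the arrays 2, 3 and 4, and the array without a number is called 1.

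Blank spots were left out, and log2 ratios of 2234 probes were normalized within arrays by the robust spline of limma, fitted to all probes at once. A model with 1 coefficient per probe, signed by the dyes, was fitted by lmFit and eBayes (limma 3.58.1, R 4.3.3), with Benjamini-Hochberg adjustment over the 2234 probes. A dye coefficient was fitted beside it for the dye test. The procedure was tested on simulated data. Figures were drawn with matplotlib 3.10.9. Precision is limited by the number of arrays, 4.

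The genes named were DRM1, PsAD1, the other dormancy-named probes, 5 hormone-related probes, 10 tissue markers and the 3 probes nearest to each gene by root mean square difference. Names other than DRM1 and PsAD1 come from the study's supplementary annotations, which cover only probes listed there as changed. The genes and lists were chosen with earlier results of these data known. Alternatives were other normalizations, the deposited log2 ratios, normexp, a filter on dim probes, subtraction of the surrounding spots (a window of 5 by 5), the reverse reading of the channels and each array left out in turn. Probe sequences were not used here.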

Additional observations from a re-analysis of the deposited data

Results flagged for a closer look

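A single array lay far from the other 3 for 5 of the 29 sets of 4 array values examined, by the gap between the extreme value and its neighbour as a share of the whole range. Chance gives about 1 in 20 such sets. The sets of DRM1, PsAD1, PsAD2, Drm3 and Drm4 were not among them. For AF079851, the probe most like DRM1, array 1 lay apart, with a share of 0.883 and a log2 ratio of -0.79 against -1.67 to -1.79. For the hormone-related AY065659 the share was 0.944, with array 4 at -3.99 and the others from -3.64 to -3.62. Among the markers of dividing cells, the PCNA probes AB008186 (0.855) and Y16796 (0.841) and MCM3, AY169794 (0.884), each had array 3 as the highest.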

How the results depend on the processing

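Of 122 alternative values, 105 kept their direction and, where tested, their side of the threshold, or as counts stayed within 1.5 times. The ratios of DRM1 and PsAD1 were not tested. They had to keep their direction and move by less than the probe's SD over arrays, 0.56 for DRM1 and 1.39 for PsAD1. For PsAD1 this is a wide allowance. Reading the first channel as Cy3 reversed the log2 ratios, to 1.36 for DRM1, -2.40 for PsAD1, 2.37 for PsAD2, 2.80 for Drm3 and 1.13 for Drm4. Without 1 array, the mean lay between -1.63 and -1.18 for DRM1 and between 1.84 and 2.96 for PsAD1. The number of probes called higher, 218, was 49 without normalization and 128 with median centring, and the number called lower, 164, was 31 without normalization. Drm4 lost its call without normalization (log2 ratio -0.86, adjusted p = 0.848 in limma's test). The number of probes with a dye effect, 5, was 0 without normalization, with median centring or after subtracting the surrounding spots, where 6, 483 and 479 had an unadjusted p under 0.05. It was 2 with the global loess, 12 with normexp, 25 with scaling between arrays and 28 with the deposited log2 ratios. The dye effect of DRM1 was 0.23 with median centring (adjusted p = 0.380 in limma's test) and below 0 otherwise, and neither gene's dye effect was called under any of these settings. The cause of these changes was not tested. No paired analysis was possible beyond the array itself because both tissues of a collection share an array and the labels number no other pairs. Signals were above the blank spots in every channel, but no background was subtracted in the ratios given.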
